A study of Mus musculus with 12 samples.

Results

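The metalloproteinases and their inhibitors were described here by 10 genes, taken from the TPM table by symbol. They are the matrix metalloproteinases Mmp8, Mmp9, Mmp12, Mmp13, Mmp14 and Mmp19, the tissue inhibitors Timp1, Timp2 and Timp3, and the membrane-bound metalloproteinase Adam8. All 10 were found among the 14098 genes of the table, and 9 passed the filter on low values and were tested, Timp3 being the exception. The libraries came from BMDM, which are macrophages grown in culture from the bone marrow of male and female C57Bl/6 mice of 8 to 10 weeks, either WT or Camkk2-/- (labelled KO). Camkk2 encodes a kinase that responds to intracellular calcium. The cells of every group were embedded in a gel of collagen and hyaluronic acid. The groups were soft gel, soft gel with the cytokine IL-4 (soft+IL-4) and stiff gel, each with 2 libraries of WT and 2 of KO, which gave 12 libraries in 6 groups. The stiff gel held more collagen together with a photoinitiator and was crosslinked with UV light 24 h after the cells were embedded, and culture went on for 48 h more. The stiff gels therefore differed from the soft gels in collagen content and UV exposure as well as in stiffness, and these cannot be told apart in these libraries. The paper reports controls for UV and for collagen content, in which CD206 and MHC-II on the cells were not affected. RNA of such controls is not among the libraries. All cells were released with collagenase IV at 400 U/mL and 37 °C before RNA was taken. The Camkk2 deletion is carried by the mouse, and whether a library pools several mice is not given in the sources used here.

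Matrix metalloproteinases are zinc-dependent enzymes that are made as inactive precursors and cut collagens, elastin and other proteins of the extracellular matrix, as well as cytokines and receptors. Timp proteins bind the active site of these enzymes and block it, and Timp2 together with Mmp14 also takes part in the activation of pro-Mmp2 at the cell surface. In macrophages Mmp12 is the characteristic elastase, and several of these enzymes mark the remodelling of tissue in wounds and around tumours. RNA levels say nothing of how much of the enzyme is active.

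Mmp13, Mmp12 and Mmp8 lie in the metalloproteinase gene cluster of chromosome 9 (GRCm38, GENCODE vM21), all on the plus strand, at chr9:7272514-7283331, chr9:7344381-7369499 and chr9:7558456-7568485. The cluster as annotated runs over 9 protein-coding Mmp genes between 7272514 and 7699585, of which 7 were in the table. Mmp12 overlaps Mmp1b at its end, on the opposite strand. The other members are spread over the genome. Mmp9 is at chr2:164940780-164955850, Adam8 at chr7:139978932-139992562 on the minus strand, Timp3 at chr10:86300372-86349506, Mmp19 at chr10:128790910-128800824, Timp2 at chr11:118301069-118355740 on the minus strand, and Mmp14 at chr14:54431612-54445364. Timp1 is at chrX:20870166-20874735, within Syn1 and on the strand opposite to it. The libraries were made with a strand-specific kit, but whether the strand was used in the quantification is not given in the sources used here, so the values of Timp1 and Mmp12 could hold reads of the overlapping gene.

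The bases upstream of the starts of the 3 members in the cluster are shown because Mmp13 and Mmp12 rose with IL-4 while Mmp8, in the same cluster, was not called. Each line gives the 120 bases before a RefSeq start (GRCm38.p6, plus strand, 5′ to 3′), at chr9:7272394-7272513 for Mmp13, chr9:7344277-7344396 and chr9:7347254-7347373 for the 2 annotated starts of Mmp12, and chr9:7558309-7558428 for Mmp8. Capitals mark matches, on either strand, to the AP-1 motif TGANTCA (the site of Fos and Jun dimers) or to AGGAAG (a core bound by ETS family factors).
Mmp13: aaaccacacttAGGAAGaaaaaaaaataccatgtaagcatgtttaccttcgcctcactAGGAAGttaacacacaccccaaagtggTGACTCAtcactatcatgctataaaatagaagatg
Mmp12, first start: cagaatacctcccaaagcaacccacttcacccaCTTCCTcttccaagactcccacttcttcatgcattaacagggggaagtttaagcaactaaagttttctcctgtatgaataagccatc
Mmp12, second start: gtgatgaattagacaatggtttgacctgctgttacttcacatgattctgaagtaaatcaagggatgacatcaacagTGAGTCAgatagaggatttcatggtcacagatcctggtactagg
Mmp8: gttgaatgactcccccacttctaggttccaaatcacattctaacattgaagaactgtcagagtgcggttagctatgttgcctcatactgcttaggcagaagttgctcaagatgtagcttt
The AP-1 motif began 35 bases before the start of Mmp13 and 44 bases before the second start of Mmp12. It was in 6.75% of the 32851 promoter windows of the RefSeq table, counted over the 250 bases before each start, and in 2 of the 9 windows of the members. AGGAAG, which was in 29.5% of all windows and 6 of the 9, began 109 and 62 bases before the start of Mmp13 and 87 bases before the first start of Mmp12, while its match in Mmp8 began 220 bases before the start and is not in the stretch printed. The motifs did not overlap each other. The STAT6 motif TTCNNNNGAA, named for the factor that IL-4 activates, was in 5.85% of all windows and in none of the 9. Windows were found for 8 of the 10 members, all but Mmp9 and Mmp19. A match is a description of the letters and not a measured binding site.

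The labels were checked first with Camkk2 itself, and 3 libraries went against them. Camkk2 was at 44.2 and 11.7 TPM in WT soft, at 46.6 and 11.5 in KO soft, at 30.5 and 29.8 in WT soft+IL-4, at 11.5 and 8.54 in KO soft+IL-4, at 23.3 and 23.7 in WT stiff, and at 37.7 and 10.0 in KO stiff (library 1, then library 2). The library labelled WT soft 2 was thus as low as libraries labelled KO, and those labelled KO soft 1 and KO stiff 1 were as high as WT. All libraries were kept in their labelled groups, and the values of the members are also given without these 3 where a call changed. The libraries of WT stiff were unlike each other, with a root mean square log2 difference of 0.691 over all genes tested, and WT stiff 2 was nearest to WT soft+IL-4 2 (0.188). WT stiff 1 was at least 0.688 from every other library. The replicates numbered 1 had 10.7 to 13.4% of genes listed at 0 and those numbered 2 had 5.90 to 7.54%. All 8 macrophage markers were found in every library, at levels that differed between the groups. Csf1r (1305 to 1986 TPM) and Cd68 (1813 to 2123 TPM) were high throughout, while Adgre1 (886 to 1102 TPM in soft gel and 459.7 to 524 TPM with IL-4) and Cd14 (726 to 827 and 152 to 161 TPM) differed widely. All 7 fibroblast markers in the table were under 1 TPM, and the neutrophil granule genes Elane, Mpo, Prtn3 and Ctsg reached at most 1.57 TPM. The neutrophil markers S100a8 (6.51 to 19.9 TPM) and S100a9 (0.287 to 9.71 TPM) were higher. S100a9 and Csf3r were highest in WT stiff 1, the library with the most Mmp8 (71.1 TPM), and S100a8 was highest in KO stiff 2. The part of such cells in Mmp8 was not tested. Of the 12 neutrophil markers in the table the highest was Csf3r, at 75.7 to 122 TPM, and the summed level of the list was 93.4 to 119 TPM in the soft groups, 103 to 129 in soft+IL-4 and 97.8 to 152 in stiff.

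By TPM, which is scaled to gene length, the 10 genes spanned from Mmp12 at 719 to 1840.0 TPM to Timp3 at 0 to 0.184 TPM over the 12 libraries. Adam8 (299 to 671 TPM) and Timp2 (203 to 333 TPM) came next, and their ranges overlapped each other but not that of Mmp12. Mmp19 (25.9 to 108 TPM), Mmp8 (27.9 to 71.1 TPM), Mmp13 (8.83 to 48.0 TPM) and Mmp14 (7.03 to 38.8 TPM) formed a middle tier whose ranges overlapped. Timp1 (0.648 to 5.66 TPM) and Mmp9 (0.173 to 1.79 TPM) were near the limit of the filter. Mmp12 alone made up 85.4 to 91.4% of the summed TPM of the 6 Mmp genes, and Timp2 made up 98.3 to 99.7% of that of the 3 Timp genes. The summed Mmp level was 3.37 to 6.65 times the summed Timp level. This ratio was 3.37 to 4.25 in the 4 soft libraries and 6.09 to 6.65 in the 4 soft+IL-4 libraries, so the ranges did not overlap. In stiff gels it was 3.58 and 6.54 for WT and 5.0 and 4.39 for KO.

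**Figure D1:**
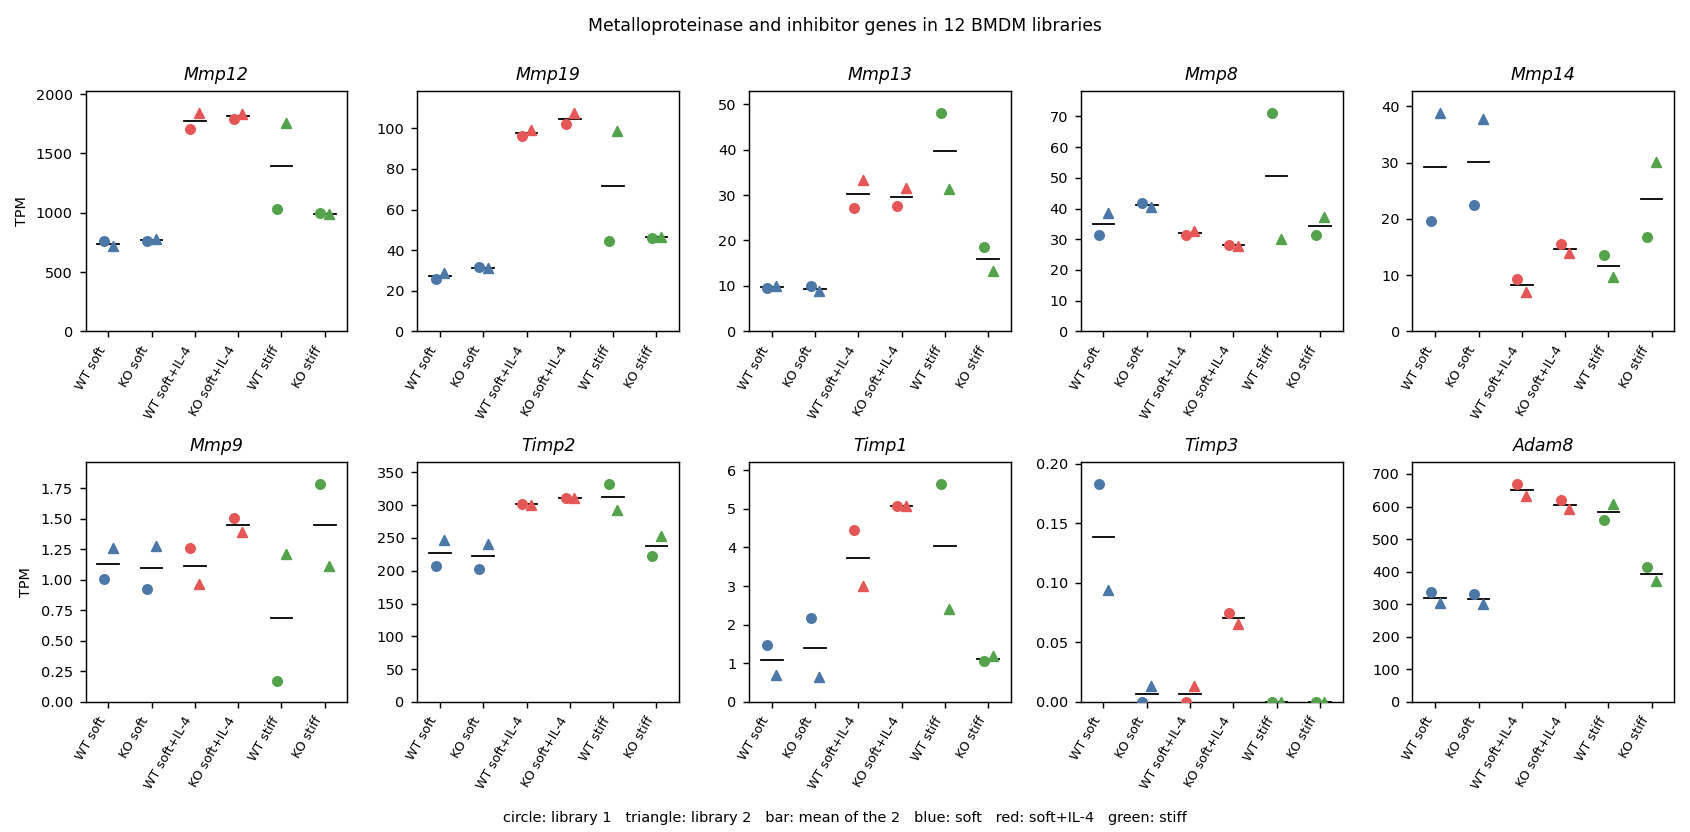
TPM of the 10 genes (y axis, linear from 0, own scale in each panel) in the 6 groups (x axis), with 1 point for each library and a bar at the mean of 2. Mmp12, Mmp13, Mmp19 and Adam8 were higher in all 4 soft+IL-4 libraries than in all 4 soft libraries, and Mmp14 was lower in all 4.

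IL-4 was compared with soft gel alone to show how these genes respond to the classical inducer of alternative macrophage activation. With IL-4 the collagenase gene Mmp13, the elastase gene Mmp12 and Mmp19 rose about as much in WT as in KO, while Mmp14 fell in WT. A gene was called when the adjusted p (limma on log2(TPM + 1), Benjamini-Hochberg over 11194 genes) was under 0.05 and the log2 fold change was at least 1 in size. In WT 5 of the 9 members tested were called, 4 higher and 1 lower, against 3.76% of all genes. In KO 3 were called, all higher, against 3.65% of all genes. On adjusted p alone the count was 5 in WT, against 10.7% of all genes, and 5 in KO, against 10.3%. Averaged over both genotypes 5 were called, against 4.35% of all genes, and 7 passed on adjusted p alone, against 22.9%. The 4 soft+IL-4 and the 4 soft libraries did not overlap for 7 of the 9, which was the case for 36.9% of all genes. The median log2 fold change of the 9 was 0.98, and that of all genes was -0.05, in the comparison averaged over the genotypes. With bulk RNA, a change in the share of cells that express a gene and a change in its RNA per cell cannot be told apart.

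Mmp13, a collagenase that cuts fibrillar collagen, was at 9.45 and 10.0 TPM in WT soft and at 27.1 and 33.4 TPM in WT soft+IL-4. In KO it was at 9.92 and 8.83 TPM in soft gel and at 27.5 and 31.6 TPM with IL-4. All 4 libraries with IL-4 were therefore above all 4 without, and the genotypes lay on top of each other. The mean level rose 3.11-fold in WT (log2 fold change 1.53 ± 0.21 SE, limma with Benjamini-Hochberg adjusted p = 0.00225) and 3.15-fold in KO (1.56 ± 0.21 SE, adjusted p = 0.00206).

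Mmp12, the macrophage elastase, was at 762 and 719 TPM in WT soft and at 1705 and 1840.0 TPM in WT soft+IL-4. KO soft stood at 763 and 777 TPM and KO soft+IL-4 at 1794 and 1829 TPM. Again the groups with and without IL-4 were far apart and those of the 2 genotypes were not. The rise was 2.39-fold in WT (log2 fold change 1.26 ± 0.19 SE, limma with Benjamini-Hochberg adjusted p = 0.00386) and 2.35-fold in KO (1.23 ± 0.19 SE, adjusted p = 0.00405).

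Mmp19, which cuts basement membrane proteins, gave 25.9 and 28.7 TPM in WT soft and 96.1 and 99.3 TPM in WT soft+IL-4. In KO the values were 31.6 and 31.2 TPM in soft gel and 102 and 108 TPM with IL-4. Among the called members this was the largest change in either genotype, at 3.59-fold in WT (log2 fold change 1.81 ± 0.27 SE, limma with Benjamini-Hochberg adjusted p = 0.00356) and 3.33-fold in KO (1.71 ± 0.27 SE, adjusted p = 0.00451). Calls for Mmp12, Mmp13 and Mmp19 held in both genotypes when any single library was left out, although each such fit leaves 1 library in a group. Without the 3 libraries whose Camkk2 went against the label, which leaves 1 soft library for each genotype, their log2 fold changes were 1.22 to 1.88, and the adjusted p rose to between 0.0549 and 0.148.

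Mmp14, the membrane-anchored enzyme MT1-MMP, went the other way. It was at 19.6 and 38.8 TPM in WT soft and at 9.39 and 7.03 TPM in WT soft+IL-4, while KO soft was at 22.5 and 37.6 TPM and KO soft+IL-4 at 15.6 and 13.9 TPM. Both groups with IL-4 were below both without, but the 2 libraries of each soft group were far from each other. The fall was 3.56-fold in WT (log2 fold change -1.65 ± 0.37 SE, limma with Benjamini-Hochberg adjusted p = 0.0219). In KO the log2 fold change was -0.94 ± 0.37 SE (adjusted p = 0.156), and it was called averaged over the genotypes (-1.29 ± 0.26 SE, adjusted p = 0.00691). The WT call was lost without WT soft 2 (-1.18, adjusted p = 0.155), without WT soft+IL-4 1 (-1.83, adjusted p = 0.0835) and without WT soft+IL-4 2 (-1.46, adjusted p = 0.13), whereas the averaged one held without any single library. It was also lost without the 3 libraries that went against their Camkk2 label (-1.18, adjusted p = 0.115).

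Adam8, which sheds surface proteins of leukocytes, was at 336 and 303 TPM in WT soft and at 671 and 631 TPM in WT soft+IL-4. The KO libraries were at 333 and 299 TPM in soft gel and at 619 and 593 TPM with IL-4. The lowest library with IL-4 was far above the highest soft library. The log2 fold change was 1.02 ± 0.10 SE in WT (limma with Benjamini-Hochberg adjusted p = 0.000315) and 0.94 ± 0.10 SE in KO (adjusted p = 0.000499), so that only the WT value passed the limit on fold change. In WT the value fell below that limit without WT soft 2 (0.95) or WT soft+IL-4 1 (0.98). Without the 3 libraries that went against their label it was 0.95 in WT and 1.01 in KO (limma with Benjamini-Hochberg adjusted p = 0.0377 and 0.0237), so that KO was called and WT was not.

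Of the inhibitors, Timp2, by far the most abundant, was at 207 and 247 TPM in WT soft and at 302 and 299.6 TPM with IL-4, and in KO at 203 and 241 TPM and then 311 and 311 TPM. The groups did not overlap, which was the case for 61.3% of all genes in WT and 60.4% in KO. The change was 1.32-fold in WT (log2 fold change 0.41 ± 0.12 SE, limma with Benjamini-Hochberg adjusted p = 0.0656) and 1.4-fold in KO (0.49 ± 0.12 SE, adjusted p = 0.0356). Without the 3 libraries that went against their label the log2 fold change of Timp2 in KO was 0.36 and did not pass. Timp1 was at 1.47 and 0.689 TPM in WT soft, 4.44 and 3.01 TPM in WT soft+IL-4, 2.17 and 0.648 TPM in KO soft and 5.08 and 5.06 TPM in KO soft+IL-4. All 4 libraries with IL-4 were above all 4 without, at levels of a few TPM. Its log2 fold change missed the threshold in WT (1.19 ± 0.39 SE, limma with Benjamini-Hochberg adjusted p = 0.0846) and in KO (1.41 ± 0.39 SE, adjusted p = 0.0504) and passed it averaged over both (1.30 ± 0.27 SE, adjusted p = 0.00833). Without the 3 libraries that went against their Camkk2 label the averaged value was 1.4 (adjusted p = 0.0558). Timp3, an inhibitor held in the matrix, was listed at no more than 0.184 TPM in any library and at 0 in 6, and was not tested.

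The neutrophil collagenase gene Mmp8 was at 31.4 and 38.5 TPM in WT soft, 31.4 and 32.8 TPM in WT soft+IL-4, 41.9 and 40.6 TPM in KO soft and 28.1 and 27.9 TPM in KO soft+IL-4. The WT groups overlapped and the KO groups did not, as for 60.4% of all genes in KO. Its log2 fold change with IL-4 was -0.11 in WT (95% interval -0.80 to 0.57) and -0.54 in KO (-1.22 to 0.14). The gelatinase gene Mmp9 stayed between 0.926 and 1.51 TPM in all 8 libraries with or without IL-4, with a log2 fold change of -0.01 in WT (95% interval -0.72 to 0.69) and 0.23 in KO (-0.48 to 0.93).

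**Figure D2:**
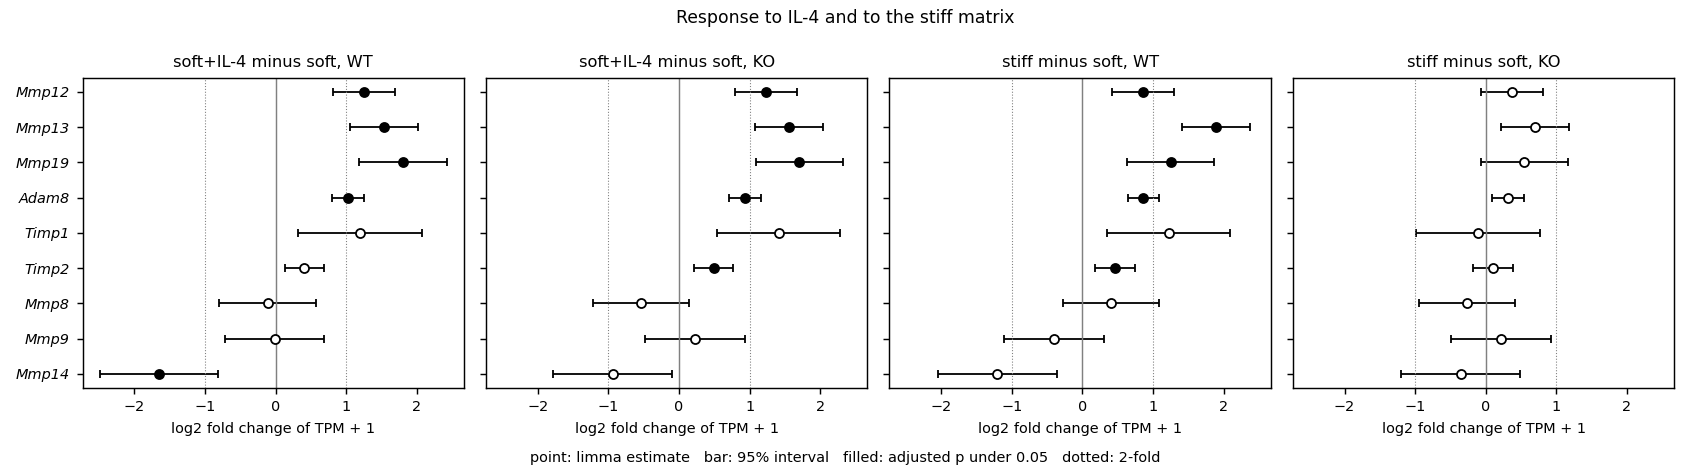
Log2 fold change of TPM + 1 (x axis) of the 9 genes tested, for soft+IL-4 minus soft and for stiff minus soft in WT and KO, with limma estimates as points, 95% intervals as bars and filled points at an adjusted p under 0.05. Mmp13 had the largest rise in stiff gel in WT (1.89), and no gene passed for stiff gel in KO.

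The difference of the IL-4 responses between the genotypes was tested as an interaction, and 0 of the 9 members were called, as for all genes (0%). In limma 0 members had an unadjusted p under 0.05 for it, while 165 of all genes did. For Mmp12, Mmp13 and Mmp19 the difference, KO minus WT, was -0.02, 0.02 and -0.10 on the log2 scale, with 95% intervals of -0.64 to 0.60, -0.66 to 0.70 and -0.97 to 0.77. The largest estimates were 0.71 for Mmp14 (-0.48 to 1.89) and -0.43 for Mmp8 (-1.39 to 0.54). Those of Adam8, Timp2, Timp1 and Mmp9 lay between -0.09 and 0.24. These wide intervals do not show that the genotypes respond alike.

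Stiff gel was compared with soft gel, both without added IL-4. In WT 2 of the 9 members were called, Mmp13 and Mmp19, both higher, against 3.97% of all genes. On adjusted p alone there were 5, all higher, against 10.6% of all genes, the others being Mmp12, Timp2 and Adam8. In KO 0 members were called in limma, against 0.0447% of all genes, and 2 (Mmp13 and Adam8) had an unadjusted p under 0.05, as did 2.64% of all genes. The median log2 fold change of the 9 was 0.86 in WT and 0.21 in KO, beside 0.02 and -0.01 for all genes. These comparisons use the same soft libraries as those of IL-4.

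Mmp13 reached 48.0 and 31.2 TPM in WT stiff, beside 9.45 and 10.0 TPM in WT soft, and at 18.5 and 13.4 TPM in KO stiff, beside 9.92 and 8.83 TPM in KO soft. Stiff was above soft in both genotypes without overlap, and the WT stiff libraries were above those of KO stiff. Of all genes, 42.8% did not overlap between stiff and soft gel in WT and 32.3% in KO. Between WT stiff and KO stiff the share was 39.1%. The rise in WT was 4.07-fold (log2 fold change 1.89 ± 0.21 SE, limma with Benjamini-Hochberg adjusted p = 0.000666). The log2 fold change was 1.59 to 2.19 when any single library was left out, in fits that leave 1 library in a group. With only the WT soft and WT stiff libraries in the model the adjusted p was 0.0725. In KO the level was 1.70 times that of soft gel (log2 fold change 0.69 ± 0.21 SE, limma with Benjamini-Hochberg adjusted p = 1).

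The other called gene, Mmp19, was at 44.4 TPM in WT stiff 1 and 98.4 TPM in WT stiff 2, the latter as high as with IL-4. The log2 fold change of Mmp19 in WT was 1.25 ± 0.27 SE (limma with Benjamini-Hochberg adjusted p = 0.0194). Without WT stiff 1 it was 1.82 and without WT stiff 2 it was 0.69, below the limit on fold change, and the adjusted p was 0.118 without WT soft 1 and 0.0852 without WT soft 2. Without the 3 libraries that went against their label it was 1.32 (adjusted p = 0.226). In KO stiff Mmp19 was at 46.0 and 46.6 TPM, close to WT stiff 1.

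Mmp12 showed the same split, with 1035 TPM in WT stiff 1, 1755 TPM in WT stiff 2, and 1001 and 985 TPM in KO stiff. All 4 stiff libraries were above all 4 soft ones. In WT the log2 fold change was 0.86 ± 0.19 SE (limma with Benjamini-Hochberg adjusted p = 0.0221), 0.48 without WT stiff 2 and 1.24 without WT stiff 1, and in KO it was 0.37 ± 0.19 SE (adjusted p = 1).

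Adam8 did not split in this way, at 557 and 607 TPM in WT stiff and 416 and 372 TPM in KO stiff. Both groups were above soft gel, by 0.86 ± 0.10 SE on the log2 scale in WT (limma with Benjamini-Hochberg adjusted p = 0.000751) and 0.32 ± 0.10 SE in KO (adjusted p = 1). The levels of Timp2 were 333 and 292 TPM in WT stiff gels and 222 and 253 TPM in KO stiff, and only the WT value passed on adjusted p (log2 fold change 0.46 ± 0.12 SE, adjusted p = 0.0439, against 0.10 ± 0.12 SE in KO). Without the 3 libraries that went against their label the limma adjusted p in WT stiff was 0.286 for Mmp12, 0.111 for Timp2 and 0.053 for Adam8.

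Timp1, Mmp8 and Mmp9 differed widely between the WT stiff libraries. Timp1 was at 5.66 and 2.40 TPM, Mmp8 at 71.1 and 30.2 TPM, and Mmp9 at 0.173 and 1.21 TPM in WT stiff 1 and WT stiff 2. KO stiff gave 1.06 and 1.18 TPM for Timp1, 31.5 and 37.1 TPM for Mmp8, and 1.79 and 1.12 TPM for Mmp9. WT stiff 1 thus held the highest Mmp8 and Timp1 and the lowest Mmp9 of all 12 libraries. For Timp1 both WT stiff libraries were above both WT soft libraries (1.47 and 0.689 TPM). Its log2 fold change for stiff gel in WT was 1.22 ± 0.39 SE (limma with Benjamini-Hochberg adjusted p = 0.0831). In limma none of the 3 genes was called for stiff gel in WT. Without WT stiff 2, which leaves WT stiff 1 alone in its group, the log2 fold change was 1.01 for Mmp8 and 1.70 for Timp1.

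Mmp14 gave 13.6 and 9.62 TPM in WT stiff, below both WT soft libraries, and at 16.8 and 30.1 TPM in KO stiff, of which the first was below both KO soft libraries and the second between them. The log2 fold change was -1.20 ± 0.37 SE in WT (limma with Benjamini-Hochberg adjusted p = 0.0754) and -0.36 ± 0.37 SE in KO (adjusted p = 1). Timp3 was listed at 0 in all 4 stiff libraries.

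WT stiff gel was also set against WT soft gel with IL-4. By limma 0 of the 9 members were called, as for all genes (0%), and 0 had an unadjusted p under 0.05, as did 557 of all genes. The log2 fold changes, stiff minus soft+IL-4, were 0.35 for Mmp13 (95% interval -0.13 to 0.84), -0.39 for Mmp12 (-0.83 to 0.04), -0.55 for Mmp19 (-1.17 to 0.06), -0.16 for Adam8 (-0.39 to 0.07) and 0.44 for Mmp14 (-0.39 to 1.28). WT stiff 2 was at 97.0 to 103% of the WT soft+IL-4 mean for Mmp12, Mmp13, Mmp19 and Timp2, at 93.3 to 117% for Adam8, Mmp8, Mmp9 and Mmp14, and at 64.3% for Timp1. WT stiff 1 was further from it for each of these 9 genes, at 15.6 to 222%. Without WT stiff 2, which leaves WT stiff 1 alone in its group, the log2 fold change was -1.12 for Mmp19 and 1.12 for Mmp8. The spread of a lone library is taken from the other groups, so these values describe WT stiff 1 only.

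KO was compared with WT in each gel, by the labels. Mean Camkk2 was close between the labels in soft gel (27.9 TPM in WT and 29.0 TPM in KO) and stiff gel (23.5 and 23.8 TPM), and its log2 fold change with IL-4 was -1.51 (limma adjusted p = 1). A difference between labels in soft or stiff gel is therefore not one between mean levels of Camkk2. In soft gel 0 of 9 members were called by limma, as for all genes (0%), and in soft+IL-4 likewise 0 (0%). No member had an unadjusted p under 0.05 in either, while 130 genes did in soft gel and 233 in soft+IL-4. In stiff gel 1 member was called, Mmp13, which was lower in KO, against 1.98% of all genes, and 2 passed on adjusted p alone, against 4.93% of all genes. Mmp13 was 2.49-fold lower in KO stiff (log2 fold change -1.25 ± 0.21 SE, limma with Benjamini-Hochberg adjusted p = 0.0114). Adam8 was the other (log2 fold change -0.56 ± 0.10 SE, adjusted p = 0.0131). The values of the 2 stiff groups did not overlap for either gene, which was the case for 39.1% of all genes.

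The Mmp13 difference was -1.03 without KO stiff 2, -0.95 without WT stiff 1, -1.47 without KO stiff 1 and -1.55 without WT stiff 2. Of these, KO stiff 1 was the library whose Camkk2 was not low. The call did not hold without KO stiff 2 or without WT stiff 1. Each of these fits leaves 1 library in a stiff group, whose spread is then taken from the other groups. Without all 3 libraries that went against their label it was -1.47 (adjusted p = 0.117), and with only the 2 stiff groups in the model the adjusted p was 0.341. For Adam8 these adjusted p were 0.131 and 0.402. Among the genes that were not called, Timp1 (-1.17, 95% interval -2.04 to -0.29), Timp2 (-0.39, -0.67 to -0.12) and Mmp12 (-0.44, -0.88 to -0.0016) had estimates below 0 and Mmp14 (0.92, 0.08 to 1.76) had one above 0, with unadjusted p under 0.05 in each. Their limma adjusted p lay between 0.118 and 0.273. In this comparison 6 of the 9 members had an unadjusted limma p under 0.05, as did 18.2% of all genes.

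**Figure D3:**
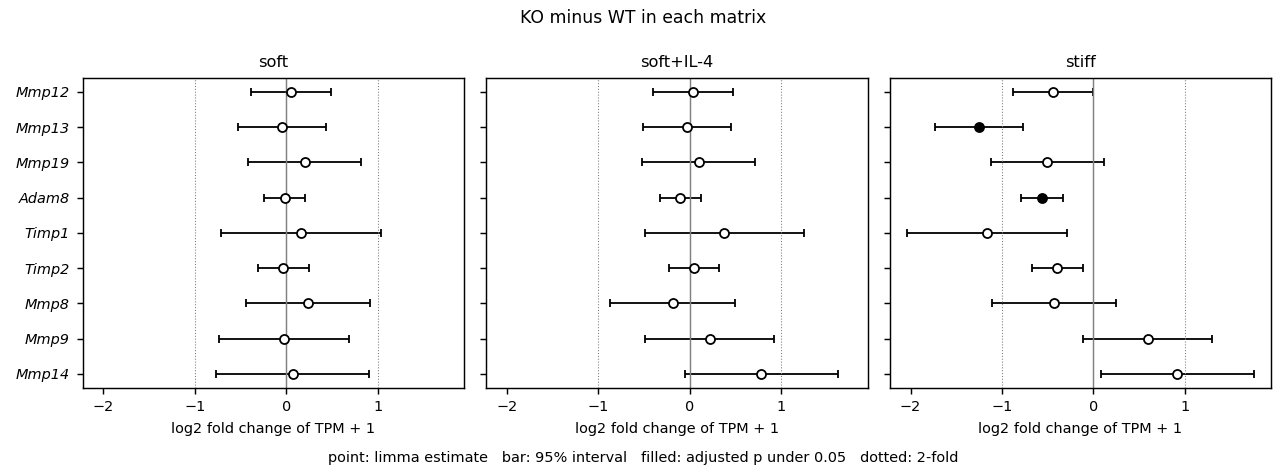
Log2 fold change of TPM + 1, KO minus WT (x axis), of the 9 genes tested in soft, soft+IL-4 and stiff gel, with limma estimates as points, 95% intervals as bars and filled points at an adjusted p under 0.05. Mmp13 and Adam8 passed in stiff gel, and no gene did in the other gels.

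The difference between the genotypes in the response to stiff gel was tested as an interaction. By limma 0 of the 9 members were called, against 0.67% of all genes, and 3 had an unadjusted p under 0.05, as did 10.9% of all genes. These were Mmp13 (-1.20 ± 0.30 SE, Benjamini-Hochberg adjusted p = 0.133), Adam8 (-0.55 ± 0.14 SE, adjusted p = 0.143) and Timp1 (-1.33 ± 0.55 SE, adjusted p = 0.414). That Mmp13 rose past the threshold in WT stiff and not in KO stiff was therefore not shown to be a difference between the genotypes in all 12 libraries. Without WT stiff 2 the interaction was -1.5 for Mmp13, -1.27 for Mmp8, -1.81 for Timp1 and -0.14 for Mmp19. Without WT stiff 1 it was -0.89, -0.07, -0.84 and -1.27 in that order. Each of these fits leaves 1 library in WT stiff, whose own spread is not known, so no difference is read from them.

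Mmp14 and Camkk2 differed within the same 3 groups, in opposite directions. In WT soft the library with 44.2 TPM of Camkk2 had 19.6 TPM of Mmp14 and that with 11.7 had 38.8. In KO soft the pairs were 46.6 with 22.5 and 11.5 with 37.6, and in KO stiff they were 37.7 with 16.8 and 10.0 with 30.1. The library with less Camkk2 had more Mmp14 in each of these groups. Within each soft+IL-4 group, where the libraries were closer in Camkk2, the one with less had less Mmp14. KO soft+IL-4, where both libraries were low in Camkk2, had more Mmp14 (15.6 and 13.9 TPM) than WT soft+IL-4 (9.39 and 7.03 TPM). The last difference was 0.78 ± 0.37 SE on the log2 scale (95% interval -0.06 to 1.62, limma adjusted p = 1). The 3 libraries with little Camkk2 in these groups were all numbered 2 and those with much were numbered 1, and the numbers also differed in the share of genes at 0, whose part in this was not tested. Timp2 was higher in the library with less Camkk2 in the same 3 groups, by 19.5% in WT soft, 19.1% in KO soft and 13.6% in KO stiff, and Adam8 was lower in it (303 against 336 TPM, 299 against 333 TPM and 372 against 416 TPM). The other members tested did not differ in 1 direction in all 3 groups. How many of all genes did so was not counted, so these members cannot be said to stand out. Over all genes tested the replicate differences of these 3 groups were correlated with each other (0.283 to 0.314). The groups were picked after their Camkk2 values were seen.

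**Figure D4:**
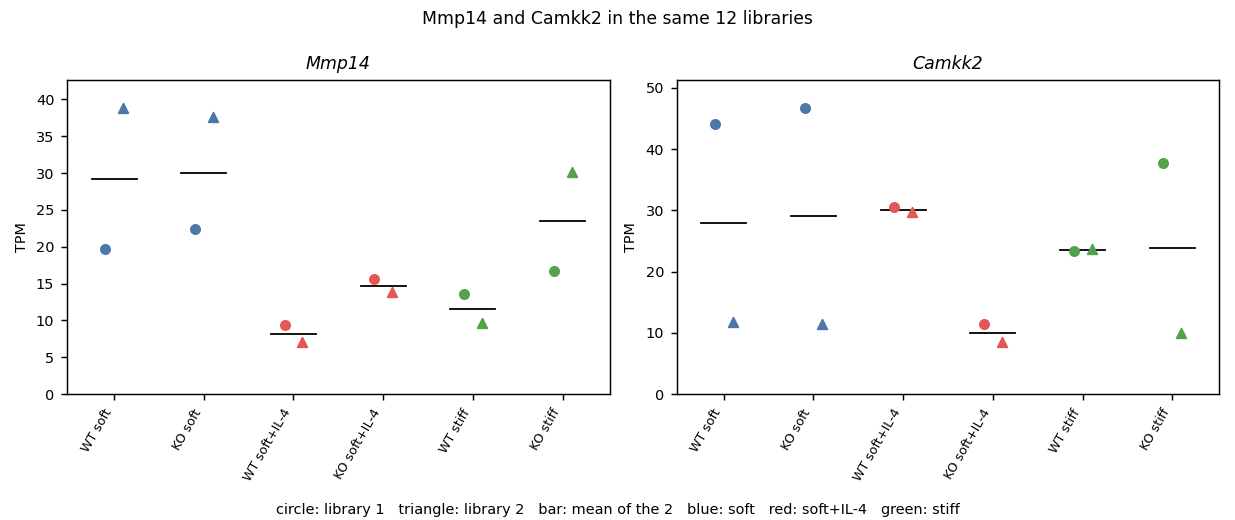
TPM of Mmp14 (left) and Camkk2 (right) in the 6 groups (x axis), with 1 point for each library and a bar at the mean of 2. In WT soft, KO soft and KO stiff library 2 had the higher Mmp14 (38.8, 37.6 and 30.1 TPM) and the lower Camkk2 (11.7, 11.5 and 10.0 TPM).

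Further genes of the same system were taken as 3 lists. Of 18 genes in the list of the other matrix metalloproteinases and Timp4, 11 were in the table and 2 passed the filter (Mmp25 and Mmp27), and by limma 0 were called in any comparison, with 0 at an unadjusted p under 0.05. The gelatinase gene Mmp2, whose precursor Mmp14 activates, was listed at no more than 0.176 TPM. Mmp27, a neighbour of Mmp8 in the cluster, was at 3.20 to 8.43 TPM in 11 libraries and at 20.6 TPM in WT stiff 1, the library that also had the most Mmp8. Mmp10 and Mmp3, which lie between Mmp12 and Mmp8, reached 1.38 and 0.603 TPM.

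Of 24 other Adam and Adamts genes, 18 were in the table and 8 were tested. The single call was Adam33, which was lower in WT stiff (0.0784 and 0.758 TPM) than in WT soft (2.31 and 2.09 TPM) (log2 fold change -1.22 ± 0.30 SE, limma with Benjamini-Hochberg adjusted p = 0.0325). Adam33 was near the limit of the filter, at 0.0784 to 2.75 TPM over the 12 libraries, and was lowest in WT stiff 1. Leaving out libraries was not tried for genes outside the members. On adjusted p alone 2 of the 8 were lower with IL-4 in WT, and in KO 1 was higher and 2 were lower, against 10.7% and 10.3% of all genes in either direction. Adam17, the sheddase of TNF, was among the lower ones and is named after its values were seen. It was at 143 to 168 TPM in the 4 soft libraries and at 90.5 to 93.7 TPM in the 4 soft+IL-4 libraries, which is a change of -0.72 ± 0.10 SE on the log2 scale in WT (limma with Benjamini-Hochberg adjusted p = 0.00241) and -0.75 ± 0.10 SE in KO (adjusted p = 0.00205). Adam8 and Adam17 thus moved in opposite directions with IL-4. In stiff gel Adam17 had 99.3 and 90.3 TPM in WT and 136 and 149 TPM in KO, a difference of 0.58 ± 0.10 SE (KO minus WT, adjusted p = 0.0124), opposite in sign to that of Adam8.

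Of 22 activators and other inhibitors, 19 were in the table and 13 were tested, and by limma 0 were called in any comparison. On adjusted p alone 3 were higher and 1 lower with IL-4 in WT, and 4 were higher and 1 lower in KO, against the same shares of all genes, while 5 (WT) and 6 (KO) of the 13 had an unadjusted p under 0.05, as did 25.4% and 24.2% of all genes. Cd44, a hyaluronan receptor that docks Mmp9 at the cell surface and is also named after its values were seen, was at 98.4 to 113 TPM in soft gel and at 166 to 182 TPM with IL-4 (log2 fold change 0.75 ± 0.09 SE in WT, limma with Benjamini-Hochberg adjusted p = 0.00128). Furin, which cuts the precursor of Mmp14, was at 52.4 to 62.0 TPM in soft gel and 71.1 to 79.4 TPM with IL-4.

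Sums of marker lists of other states differed between the same groups as the members. The sum of the 7 osteoclast and fused macrophage markers in the table was 358 to 458 TPM in soft gel, 835 to 970.0 TPM in soft+IL-4, then 704 and 899 TPM in the WT stiff libraries and 464 to 560.4 TPM in KO stiff. The fusion genes Ocstamp (4.24 to 5.93 TPM in soft gel and 97.5 to 110.0 TPM with IL-4) and Dcstamp (36.1 to 44.7 and 127 to 138 TPM) were among them. Nfatc1, of the same list, went the other way (19.0 to 21.8 TPM in soft gel and 12.9 to 14.4 TPM with IL-4). Ctsk overlapped between soft gel (38.7 to 84.7 TPM) and IL-4 (51.6 to 83.9 TPM). In WT stiff 1 Ocstamp was at 8.91 TPM and Dcstamp at 8.10 TPM, and in WT stiff 2 at 93.6 and 127 TPM. Calcr was the marker not in the table and Oscar was at 0.278 TPM or less. The sum of the 8 dendritic cell markers was 132 to 150 TPM in soft gel, 636 to 674 TPM in soft+IL-4, then 192 and 641 TPM in the WT stiff libraries and 261 to 271 TPM in KO stiff, of which Itgax made up most, while Flt3, Zbtb46, Xcr1 and Clec9a reached at most 1.53 TPM. The sum of the 8 macrophage markers, mostly Lyz2, was 51475 to 57980 TPM in soft gel and 23571 to 25556 TPM with IL-4. On stiff gel it was 23619 and 24708 TPM for WT against 45977 and 48589 TPM for KO. By limma 5 of the 8 were called lower with IL-4 in WT, against 3.76% of all genes, and 3 in KO, against 3.65%. In WT stiff 3 were called lower, against 3.97%, and in KO stiff 0, against 0.0447%. Between the labels in stiff gel 2 of the 8 were called higher in KO, against 1.98%. The part of these markers in the changes of the members was not tested.

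The 2 genes whose log2(TPM + 1) followed each member most closely over the 12 libraries were named as a description. For Mmp12 they were Zyx (Pearson r = 0.997) and Atp5g3 (0.996), and for Mmp19 they were Mmp12 itself (0.995) and Atp5g3 (0.994). Mmp13 was followed by Dusp4 (0.989) and Lpxn (0.986), Adam8 by Rgl1 (0.992) and Csf2rb (0.992), Mmp14 by Pkd1 (0.994) and Itgb5 (0.979), and Timp2 by Fcrls (0.986) and Sdc4 (0.985). For Timp1 they were G3bp1 (0.941) and Cct7 (0.937), for Mmp8 Atad5 (0.98) and Rpl7 (0.97), and for Mmp9 Ndst2 (0.948) and Hivep3 (0.934). The points share the 6 groups and the library that stood apart, and the closest of 11194 genes is high by selection.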

How the data were processed

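RNA of 12 BMDM libraries was analysed, 2 numbered replicates for each of 6 groups taken from the labels. The paper calls them biological replicates. The titles of both soft+IL-4 libraries of each genotype name the same soft gel number, and whether they share a source is not given. A single table was deposited by the authors, in TPM (a unit corrected for gene length that sums to 1000000 in each library). The submitters' processing notes name Trim Galore 0.6.7, Salmon 1.4.0 and mm10, whereas the methods of the study name snakePipes, STAR, featureCounts and DESeq, so the route from reads to TPM is not settled. TPM keeps no counts, so depth is unknown and no counting error can be given. All 14098 genes and 0 unused columns were read.

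The 11194 genes that reached 1 TPM in 2 or more libraries were tested as log2(TPM + 1), using limma 3.58.1 under R 4.3.3 (1 mean for each group, no covariates, eBayes with trend), Benjamini-Hochberg adjusted within each comparison. A pseudocount of 1 understates fold changes of low genes such as Timp1 and Mmp9. An exact permutation test of 2 against 2 libraries cannot go below p = 0.333. TPM are shares, so a change in a few abundant genes shifts all others. The members and the lists were chosen with earlier results of these data known. Named genes were all members, every gene of the 3 lists that was called, Camkk2 and the 2 closest genes by Pearson r. Adam17, Cd44, Furin, Mmp2, Mmp3, Mmp10, Mmp25, Mmp27 and the marker genes named singly were picked after their values were seen. On data simulated for IL-4 in WT, 186 of 200 changed genes (93%) were recovered with 5 false calls among 11052 genes tested. The changes were 1.5, 2 or 3 in size on the log2 scale and were put on the more abundant genes. At 1.5 the share recovered was 83.6%. Each gene was given the same spread in every group. The shares do not cover smaller changes, low genes such as Timp1 and Mmp9, or a library that stands apart. Alternatives were a pseudocount of 0.1, no filter, median-of-ratios scaling, only the groups compared, a replicate block, an adjusted p under 0.1, no fold limit, leaving out each library, and leaving out 3 libraries.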

Additional observations from a re-analysis of the deposited data

How the results depend on the processing

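Of 1296 member values under the alternatives, 1234 kept their side of the threshold, 24 lost a call and 38 gained one. None of the called values reversed. Among the 1234, 55 that were called under neither setting changed sign. Counts of members called that moved by more than 1.5 times were as follows. With only the compared groups in the model, stiff in WT went from 2 to 0 and KO against WT in stiff from 1 to 0. At an adjusted p under 0.1 stiff in WT gave 4. With no limit on fold change IL-4 in KO gave 5, stiff in WT 5 and KO against WT in stiff 2. Without the 3 libraries that went against their Camkk2 label, which leaves 1 library in 3 groups, IL-4 in WT gave 0, IL-4 in KO 1, stiff in WT 1 and KO against WT in stiff 0. Leaving out each library in turn, where the lone library left is assumed to vary like the other groups, gave 3 to 5 for IL-4 in WT, 3 to 5 for IL-4 in KO, 1 to 3 for stiff in WT, 0 to 2 for stiff against IL-4 in WT, 0 to 4 for KO against WT in stiff and 0 to 3 for the interaction of genotype and stiffness. Fewer samples are part of those settings, and otherwise the cause was not tested.

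The replicate block gave 6 members for IL-4 in WT, 4 for IL-4 in KO, 5 averaged over the genotypes, 3 for stiff in WT and 1 for KO against WT in stiff, Timp1 being the gain in each of the 3 that rose. The replicate numbers did not meet the bar for pairing in every group, since the correlation of replicate differences was above 0.1 in 3 of 15 pairs of groups (range -0.05 to 0.31). These 3 were WT soft with KO soft (0.314), WT soft with KO stiff (0.283) and KO soft with KO stiff (0.307), whose 2 libraries also stood apart in Camkk2. The 2 libraries per group and the 3 labels limit every comparison of genotypes.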
